A study of Sus scrofa with 32 samples.

Results

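The expression of 10 cell cycle genes was described in 2 pig muscles, the longissimus dorsi of the loin (LD) and the semimembranosus of the ham (S). The genes were taken by symbol from the 25322 gene IDs of the count table, in which each had 1 ID. Of these, 7 act mainly in mitosis: CDK1 (ENSSSCG00000010214), CDC20 (ENSSSCG00000003949), AURKB (ENSSSCG00000028924), KIF20A (ENSSSCG00000014326), KIF23 (ENSSSCG00000004969), NCAPG (ENSSSCG00000008747) and ASPM (ENSSSCG00000010896). MCM2 (ENSSSCG00000011624) and MCM3 (ENSSSCG00000025488) act in DNA replication, and CHEK1 (ENSSSCG00000015215) in the checkpoint that links replication to mitosis. The study compared 8 Pulawska gilts (PUL), an indigenous breed, with 8 Polish Landrace gilts (PL), 2 breeds that differ in meat texture. The sample labels mark PUL as high and PL as low for shear force, a measure of toughness, but the texture measurements in the study itself run the other way, with the tougher meat in PL. The groups are therefore named by breed alone, and no direction of meat texture is drawn from the labels. Each pig gave 1 LD and 1 S library, so that 4 groups of 8 libraries were formed. All animals were unrelated females from different farms that had been kept at the same test station, and the samples were whole muscle taken after slaughter. The labels give an age of 180 days for every pig. The study, however, slaughtered the pigs at a set body weight and treated age at slaughter as a trait that varied. It also reported a lower daily gain in PUL. Breed and shear force label coincide in every animal and cannot be told apart. The difference in growth rate, and any difference in age, cannot be separated from breed here either.

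A dividing cell copies its DNA and then separates the copies. Before copying starts, rings of MCM proteins are loaded onto DNA, where they later unwind the double helix, and the checkpoint kinase CHEK1 holds back mitosis while replication is stressed or unfinished. CDK1 with its cyclin then drives the cell into mitosis, condensins such as NCAPG compact the chromosomes, and AURKB, KIF20A and KIF23 serve the spindle midzone and the final separation of the daughter cells. The nuclei of mature muscle fibres have left the cell cycle, and dividing cells of muscle are the satellite cells (the muscle stem cells) and the cells between the fibres, such as fibroblasts, endothelial cells and leukocytes. In whole muscle, fewer cells of a type and less RNA per cell cannot be told apart.

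The libraries held 8821259 to 24761846 counts. The 10 genes were near the lower end of what was detected, with 1 to 307 counts per gene and library, and all 10 passed the filter on low counts in every comparison. Levels are given in CPM, the counts of a gene relative to the total of its library on a scale common to all libraries, after the totals had been corrected for differences in composition with TMM factors. Gene lengths were not used, so levels are compared between samples and not between genes. The SD over the 8 pigs of a group was 0.609 to 4.79 times the SD that counting alone would give (median 2.62), and it was below counting error in only 2 of the 40 combinations of gene and group. Most libraries of PUL pigs 1 to 5 held more RNA of hepatocyte genes than the rest, although the ranges overlapped. The summed level of these genes (9 of 12 listed markers had an ID) was 24.2 to 1420 CPM, against 8.05 to 65.3 CPM in the other PUL libraries and 8.87 to 33.8 CPM in PL. The tests of the 10 genes between the breeds were therefore repeated without these pigs. Not repeated were the tests of other cell cycle lists and cell markers, the counts of separated pigs and the fits with DESeq2. Of the skeletal muscle markers only ACTA1, the actin of the fibres, had an ID, and at 29800 to 152000 CPM it was abundant in every library.

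Most of the cell cycle genes had higher means in PL than in PUL, in both muscles, but no difference passed the threshold of an adjusted p of 0.05 with a fold of at least 1.3. In LD, 9 of the 10 genes had a log2 fold change above 0 (PL over PUL), with a median of 0.60, while the median over all 10792 genes tested was 0.01 and 50.8% of them were above 0. In S, 8 of 10 were above 0, with a median of 0.74, where all 10687 genes tested had a median of 0.02 and 52.6% were above 0. By the quasi-likelihood test of edgeR, with Benjamini-Hochberg adjustment over all genes, 0 of the 10 genes were called in LD, where 0.0% of all genes were called, and 0 of 10 in S, where the share was again 0.0%. At an unadjusted p under 0.05, 4 of 10 were higher in PL in LD (KIF20A, CDK1, KIF23 and MCM2), against 3.64% of all genes, and 5 of 10 in S (the same 4 and CHEK1), against 5.38%. None was lower in PL at that level, where 3.51% of all genes were in LD and 6.33% in S. DESeq2 called no member in LD and 2 in S: CHEK1 (log2 fold change 1.13 ± 0.29 SE, adjusted p = 0.0266) and KIF23 (0.96 ± 0.26 SE, adjusted p = 0.0397). KIF23 and CHEK1 were chosen because the study had picked them from these same S samples, so their values in S are not independent evidence of a direction. The other genes were also chosen with earlier results of these data known, and LD and S come from the same pigs. The counts above are therefore a description and not independent evidence.

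**Figure D1:**
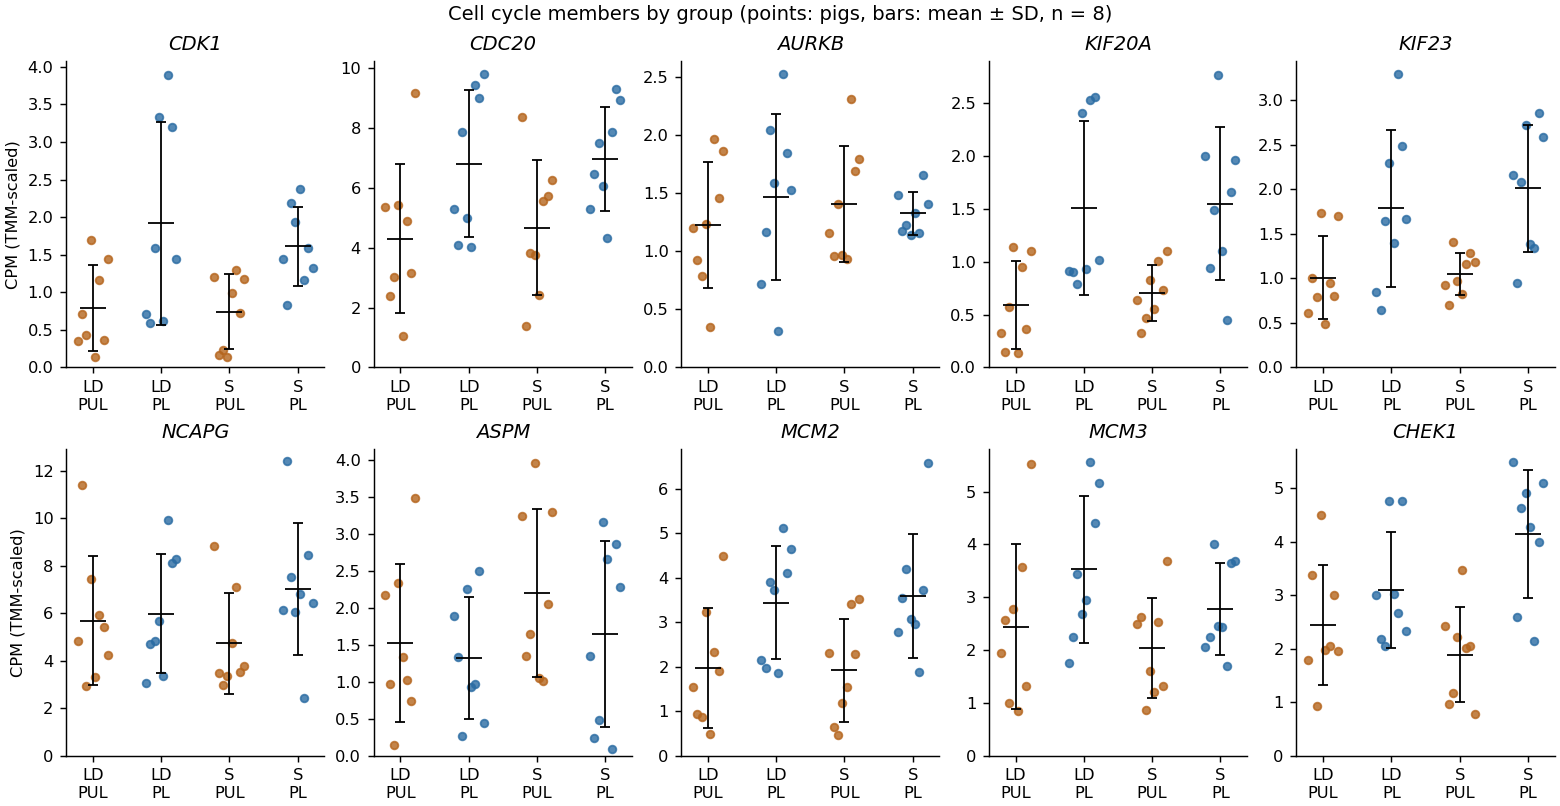
Level in CPM (y axis, from 0, scaled separately for each gene) of the 10 genes in the 4 groups (x axis). Points are pigs, and bars are the mean ± SD over 8 pigs. The highest PL points lie above every PUL point for CDK1, CDC20, KIF20A, KIF23, MCM2, MCM3 and CHEK1 in both muscles. The same holds for AURKB in LD alone, for NCAPG in S alone and for ASPM in neither. The 2 breeds overlap in every panel.

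CDK1 is the kinase whose activity, together with a cyclin, starts mitosis. In LD its level ranged in PUL from 0.14 CPM in pig 5 (2 counts) to 1.69 CPM in pig 4, with a median of 0.567, and in PL from 0.587 CPM in pig 8 to 3.89 CPM in pig 14, with a median of 1.52. All 8 PL pigs were above the PUL median, 3 of them were above every PUL pig, and 4 PUL pigs were below every PL pig. PUL averaged 0.787 ± 0.573 CPM and PL 1.92 ± 1.35 CPM (SD, n = 8 each), and the log2 fold change of 1.31 ± 0.52 (SE) had an unadjusted p of 0.0205 and an adjusted p of 0.583 with edgeR. In S the range was 0.139 to 1.3 CPM in PUL (median 0.861) and 0.825 to 2.37 CPM in PL (median 1.52). There, 6 of 8 PL pigs were above every PUL pig, and the fit gave a log2 fold change of 1.12 ± 0.41 (SE, edgeR, unadjusted p = 0.0141, adjusted p = 0.326). CDK1 was thus about as far apart between the breeds in both muscles, 2.48-fold and 2.18-fold, and the interaction of breed and muscle was 0.02 ± 0.70 on the log2 scale (edgeR, adjusted p = 1.0).

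CDC20 activates the ubiquitin ligase that lets sister chromatids separate and mitosis end. In LD it ranged from 1.05 to 9.17 CPM in PUL (median 4.02) and from 4.04 to 9.81 CPM in PL (median 6.57). The PUL range ended in pig 17, which lay among the highest PL pigs, while 4 PUL pigs lay below every PL pig. In S it ranged from 1.39 to 8.38 CPM in PUL (median 4.70) and from 4.34 to 9.30 CPM in PL (median 7.0), again with 4 PUL pigs below every PL pig. The log2 fold changes were 0.67 ± 0.34 (SE) in LD and 0.58 ± 0.29 in S, with unadjusted p of 0.0651 and 0.0599 and adjusted p of 0.718 and 0.441 in edgeR.

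KIF20A and KIF23 are motor proteins that build the central spindle and are needed for cytokinesis, the division of the cell body. KIF20A ranged in LD from 0.14 to 1.14 CPM in PUL (median 0.469) and from 0.793 to 2.56 CPM in PL (median 0.975). In LD 5 PUL pigs were below every PL pig, and the PL pigs formed a lower set of 5 near 1 CPM and a higher set of 3 above 2 CPM. In S KIF20A ranged from 0.322 to 1.10 CPM in PUL (median 0.682) and from 0.448 CPM in pig 14 to 2.77 CPM in pig 10 in PL (median 1.58), and 6 of 8 PL pigs were above every PUL pig. KIF20A had the largest log2 fold change of the 10 genes in both muscles, 1.38 ± 0.46 (SE) in LD (edgeR, unadjusted p = 0.00737, adjusted p = 0.520) and 1.16 ± 0.33 in S (unadjusted p = 0.00247, adjusted p = 0.219). KIF23 ranged in LD from 0.492 to 1.74 CPM in PUL (median 0.877) and from 0.640 to 3.30 CPM in PL (median 1.66). In S the breeds were further apart relative to their spread, since PUL lay within 0.697 to 1.41 CPM while 5 of 8 PL pigs lay above that range and up to 2.86 CPM. The log2 fold change of KIF23 was 0.83 ± 0.35 (SE) in LD (edgeR, unadjusted p = 0.0307, adjusted p = 0.633) and 0.95 ± 0.25 in S (unadjusted p = 0.00128, adjusted p = 0.204).

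AURKB is the kinase of the chromosomal passenger complex, which corrects faulty attachments of chromosomes and later acts at the same midzone as both kinesins. Its breed difference was smaller than its SE in both muscles. In LD it ranged from 0.351 to 1.97 CPM in PUL (median 1.22) and from 0.311 to 2.53 CPM in PL (median 1.56), and in S from 0.939 to 2.31 CPM in PUL and from 1.14 to 1.66 CPM in PL, with a median of 1.28 in both. The log2 fold change was 0.28 ± 0.38 (SE) in LD and -0.07 ± 0.23 in S (edgeR, adjusted p = 0.943 and 0.922). In S the PL pigs lay within the PUL range, and their SD was 0.609 times the counting error.

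NCAPG, a condensin subunit, and ASPM, a spindle pole protein, had the smallest breed difference and the lowest log2 fold change of the 7 mitosis genes in LD. NCAPG ranged in LD from 2.93 to 11.4 CPM in PUL (median 5.12) and from 3.07 to 9.91 CPM in PL (median 5.24), and its log2 fold change was 0.07 ± 0.30 (SE, edgeR, adjusted p = 0.996). In S it ranged from 2.97 to 8.84 CPM in PUL (median 3.64) and from 2.42 to 12.4 CPM in PL (median 6.63), and the log2 fold change was 0.57 ± 0.29 (edgeR, unadjusted p = 0.0643, adjusted p = 0.447). In S 7 of 8 PL pigs were above the PUL median, the exception being pig 14. ASPM was the only one of the 10 genes with a log2 fold change below 0 in both muscles over all libraries, -0.19 ± 0.50 (SE) in LD (0.08 without PUL pig 17) and -0.39 ± 0.51 in S (edgeR, adjusted p = 0.987 and 0.776). It ranged in LD from 0.143 to 3.48 CPM in PUL and 0.264 to 2.49 CPM in PL, and in S from 1.01 to 3.95 CPM in PUL and from 0.0896 (1 count, pig 14) to 3.16 CPM in PL. The spread of ASPM within each group was wide, and neither breed lay apart from the other.

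**Figure D2:**
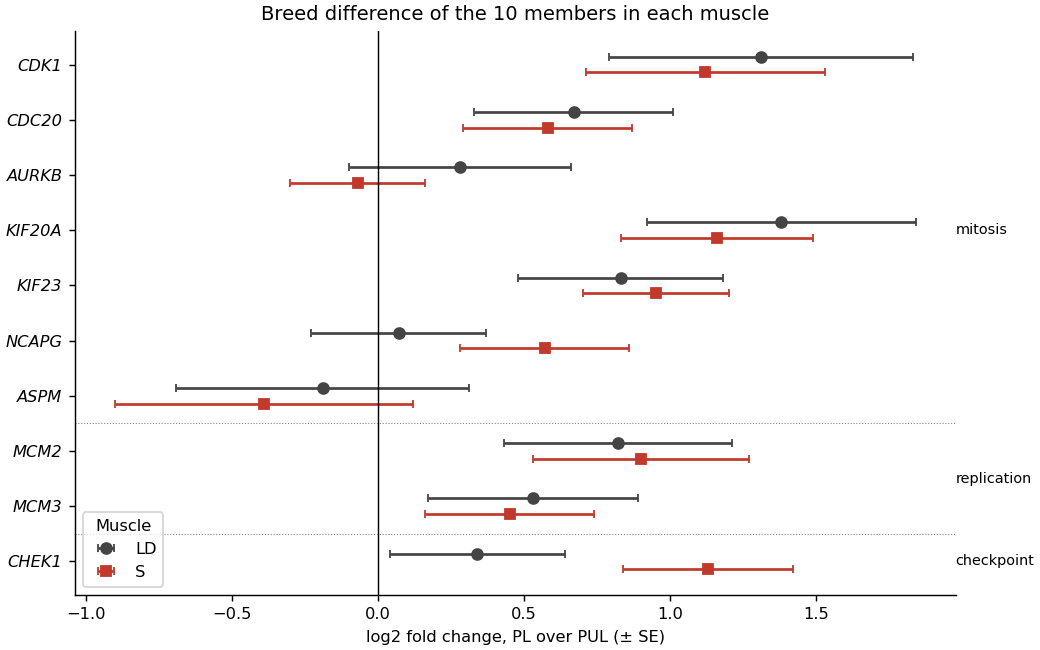
Log2 fold change of PL over PUL (x axis; bars are SE from edgeR's fit) for each gene (y axis) in LD (circles) and S (squares). CDK1, KIF20A, KIF23 and MCM2 lie right of 0.8 in both muscles, AURKB and ASPM lie near or left of 0, and CHEK1 lies at 0.34 in LD and 1.13 in S.

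MCM2 and MCM3 are subunits of the ring that opens the DNA helix at replication forks. MCM2 ranged in LD from 0.492 CPM in pig 5 to 4.50 CPM in pig 17 in PUL (median 1.73) and from 1.86 to 5.12 CPM in PL (median 3.81). In S it ranged from 0.469 to 3.53 CPM in PUL (median 1.91) and from 1.88 to 6.59 CPM in PL (median 3.31). In each muscle 4 PUL pigs were below every PL pig. The log2 fold change of MCM2 was 0.82 ± 0.39 (SE) in LD (edgeR, unadjusted p = 0.0490, adjusted p = 0.694) and 0.90 ± 0.37 in S (unadjusted p = 0.0243, adjusted p = 0.371). MCM3 ranged in LD from 0.843 to 5.52 CPM in PUL (median 2.25) and from 1.76 to 5.57 CPM in PL (median 3.19), and in S from 0.859 to 3.69 CPM in PUL (median 2.04) and from 1.70 to 4.0 CPM in PL (median 2.44). Its log2 fold change was smaller, 0.53 ± 0.36 (SE) in LD and 0.45 ± 0.29 in S (edgeR, unadjusted p = 0.154 and 0.14, adjusted p = 0.818 and 0.540).

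The breed difference of both replication genes rested largely on PUL pigs 1 to 5, most of whose libraries held more hepatocyte RNA than the rest, with overlapping ranges. In S, MCM2 averaged 1.23 ± 0.741 CPM in those 5 pigs (SD), 3.07 ± 0.688 CPM in the other 3 PUL pigs and 3.59 ± 1.40 CPM in the 8 PL pigs. In LD the corresponding means were 1.41 ± 1.08, 2.91 ± 1.39 and 3.44 ± 1.27 CPM. Without pigs 1 to 5, an alternative chosen after the data were seen that leaves 3 PUL pigs, the log2 fold change of MCM2 was 0.23 ± 0.40 (SE) in LD and 0.23 ± 0.34 in S, and that of MCM3 was 0.02 ± 0.44 and 0.16 ± 0.36. Of the mitosis genes, CDK1 then had 0.95 in LD and 0.62 in S, KIF20A 0.89 and 0.73, and KIF23 0.63 and 0.75. The values of these 3 genes were also lower than with all pigs but stayed above 0.6. CDC20 had 0.25 in both muscles. AURKB then had -0.27 in LD and -0.54 in S. In LD, NCAPG had 0.19 and ASPM -0.39. With 3 PUL pigs, none of the genes was higher in PL at an unadjusted p under 0.05 in LD, and only CHEK1 was in S. Whether the hepatocyte RNA has a part in these differences was not tested. Over the 32 libraries, the log summed level of hepatocyte markers, centred within groups, correlated at -0.17 with the mitosis mean and -0.20 with the replication mean. For single genes the correlation ranged from -0.44 for AURKB to 0.22 for CHEK1.

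CHEK1 had a larger log2 fold change in S than in LD. In S it ranged from 0.784 to 3.48 CPM in PUL (median 2.04) and from 2.15 CPM in pig 14 to 5.50 CPM in pig 7 in PL (median 4.46). All 8 PL pigs were above the PUL median, 6 of 8 were above every PUL pig and 5 PUL pigs were below every PL pig. A separation of this kind, with 4 or more PL pigs above every PUL pig, was seen in S for 5 of the 10 genes (CDK1, KIF20A, KIF23, MCM2 and CHEK1) and for 4.92% of all genes, and in LD for none of the 10 and 4.24% of all genes. The study had picked KIF23 and CHEK1 from these same S samples, and the other genes were chosen with earlier results of these data known. The count for S is therefore not independent evidence. In LD CHEK1 ranged from 0.931 to 4.51 CPM in PUL (median 2.01) and from 2.05 to 4.77 CPM in PL (median 2.83), so that the highest PUL pig was near the highest PL pig. In S, PUL averaged 1.89 ± 0.891 CPM and PL 4.15 ± 1.20 CPM (SD, n = 8 each), against 2.45 ± 1.12 and 3.10 ± 1.09 CPM in LD. The log2 fold change was 1.13 ± 0.29 (SE) in S (edgeR, unadjusted p = 0.00110, adjusted p = 0.204) and 0.34 ± 0.30 in LD (unadjusted p = 0.265, adjusted p = 0.874). Without PUL pigs 1 to 5 it was 1.35 ± 0.37 in S (edgeR, unadjusted p = 0.00288, adjusted p = 0.255). The test of the difference between the muscles gave an interaction of 0.80 ± 0.39 (SE, edgeR with the pig as a block, unadjusted p = 0.0523, adjusted p = 1.0), the largest of the 10 genes. A breed difference in S that exceeds that in LD is therefore not shown.

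Mitosis and replication genes were then set against each other. For each library the mean of log2(CPM + 0.5) was taken over the 7 mitosis genes and over the 2 replication genes. The mitosis mean was 0.99 ± 0.48 in PUL and 1.44 ± 0.48 in PL in LD, and 1.11 ± 0.34 and 1.51 ± 0.34 in S (SD, n = 8 each). The replication mean was 1.25 ± 0.73 in PUL and 1.92 ± 0.48 in PL in LD, and 1.18 ± 0.59 and 1.82 ± 0.40 in S. The PL minus PUL difference was thus 0.44 in LD and 0.40 in S for mitosis, and 0.66 and 0.64 for replication. The balance of mitosis minus replication was lower in PL by 0.22 in LD (pooled SD 0.29) and by 0.24 in S (pooled SD 0.36), so that these differences in balance were smaller than the spread between pigs. They are given as a description, with no test. Of the mitosis genes, AURKB, ASPM and, in LD, NCAPG had the lowest log2 fold changes. KIF20A and CDK1 had larger log2 fold changes than either replication gene in both muscles. The 0.5 CPM added before the log reduces differences most in genes at low levels, such as CDK1 and KIF20A. The fitted log2 fold changes, which do not use it, had medians of 0.67 for mitosis and 0.67 for replication in LD. In S these medians were 0.58 and 0.68, so the size of the gap depended on the measure.

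**Figure D3:**
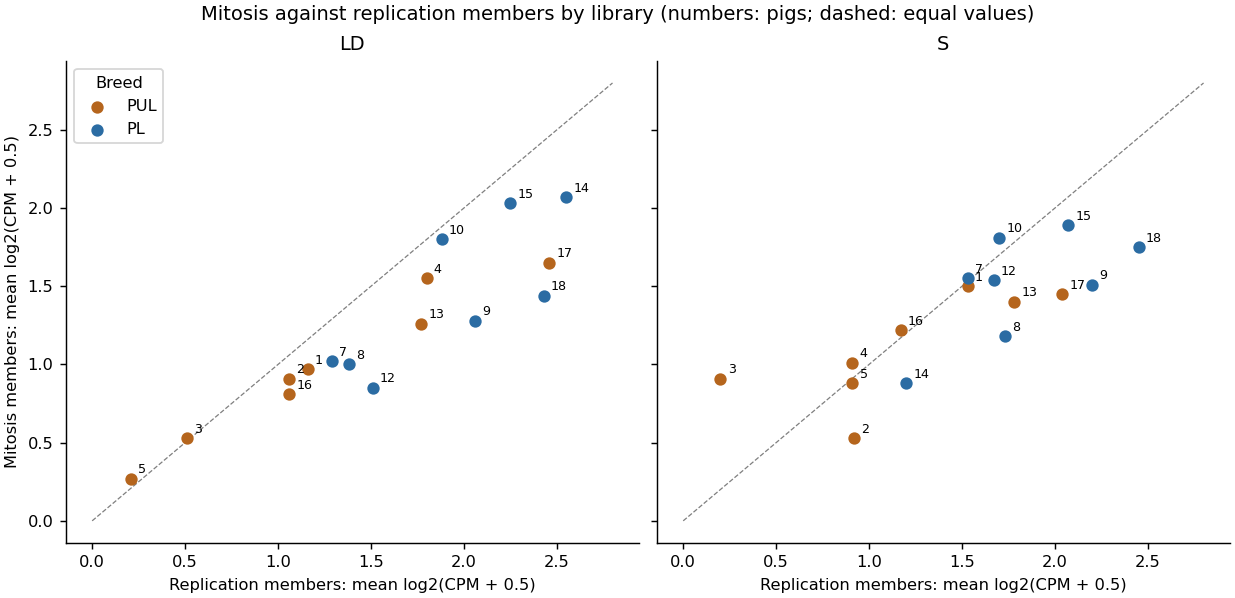
Mean log2(CPM + 0.5) of the 7 mitosis genes (y axis) against that of MCM2 and MCM3 (x axis) for each library in LD (left) and S (right), with pig numbers and a dashed line of equal values. The points of both breeds lie along 1 band, with PUL pigs 3 and 5 at the lower end in LD and PL pigs 14 and 15 at the upper end, while PL pig 14 is the lowest PL pig in S.

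The 2 sets moved together from pig to pig. After each gene was centred within its group, the mitosis mean and the replication mean had a Pearson correlation of 0.82 over the 32 libraries, which come from 16 pigs and share library depth and composition, so that the value is a description. The 21 pairs of mitosis genes had a median correlation of 0.53 (0.09 to 0.76), the 14 pairs of a mitosis and a replication gene had 0.57 (0.27 to 0.79), and MCM2 with MCM3 had 0.75. Correlation was therefore as high across the 2 sets as within the mitosis genes. ASPM was the least correlated of the mitosis genes, with a median of 0.23 to the other 6. CHEK1 had a median of 0.40 with the mitosis genes (0.03 to 0.44) and only 0.07 and 0.27 with the replication genes. With log2 total counts, the mitosis mean had a correlation of -0.08 and the replication mean of -0.24.

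Single libraries were at the extremes of many genes at once. PUL pig 5 was the lowest of its LD group in 7 of the 10 genes, among them CDK1 and KIF20A at 2 counts each, but of its S group in 1. PL pig 14 was the highest of its LD group in 6 genes, with 3.89 CPM of CDK1 and 5.12 CPM of MCM2, and the lowest of its S group in 6 genes, with 1.88 CPM of MCM2. The same animal was thus at opposite ends of PL in its 2 muscles. Its LD library also had the highest summed fibroblast markers of all LD libraries, 5520 CPM, and the highest leukocyte markers, 42.2 CPM, against 1230 and 13.2 CPM in its S library. Without the LD library of pig 14, the number of the 10 genes with an unadjusted p under 0.05 in LD was 1 in place of 4, and without the LD library of PUL pig 17, which was high in 4 genes, it was 6.

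Between the muscles of the same animal, no cell cycle gene differed past the threshold in either breed. The log2 fold change of S over LD lay in PUL between -0.38 ± 0.28 (SE) for CHEK1 (edgeR with the pig as a block, unadjusted p = 0.196) and 0.65 ± 0.44 for ASPM (unadjusted p = 0.155). In PL it lay between -0.29 ± 0.21 for MCM3 (edgeR, unadjusted p = 0.179) and 0.43 ± 0.27 for CHEK1 (unadjusted p = 0.126). Of all genes, 0.0259% were called between the muscles in PUL and 0.0% in PL, and in the interaction 0.0%. At an unadjusted p under 0.05, 0 of the 10 genes were counted in PUL, in PL and in the interaction, where 6.56%, 2.29% and 2.54% of all genes were, and DESeq2 called 0 of the 10 in each, with 1 (CHEK1) at an unadjusted p under 0.05 in the interaction. In single animals the direction varied: CDK1 was higher in S than in LD in 4 of 8 PUL pigs and 4 of 8 PL pigs, KIF20A in 5 and 6, MCM2 in 4 and 5, and CHEK1 in 3 and 6. MCM3 was higher in S in 2 of 8 PL pigs.

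Since both muscles of a pig belong to the same animal, the counts of its 2 libraries were also summed, an alternative chosen after the data were seen. Over 8 against 8 pigs, KIF20A then had a log2 fold change of 1.25 ± 0.32 (SE, edgeR, unadjusted p = 0.00116, adjusted p = 0.121), CDK1 1.18 ± 0.32 (adjusted p = 0.129), KIF23 0.86 ± 0.25 (adjusted p = 0.161), CHEK1 0.72 ± 0.23 (adjusted p = 0.184) and MCM2 0.81 ± 0.32 (adjusted p = 0.279). MCM3 had 0.48 ± 0.30, CDC20 0.58 ± 0.28, NCAPG 0.28 ± 0.19, AURKB 0.07 ± 0.24 and ASPM -0.27 ± 0.39. None of the 10 was called here either.

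Other genes of the cell cycle were taken from 4 lists. Of 58 further mitosis genes, 44 had an ID, and 25 were tested in LD and 24 in S. At an unadjusted p under 0.05, 7 of them were higher in PL in LD and 11 in S, and none was lower. Of all genes, 3.64% in LD and 5.38% in S were higher at that level, and 3.51% and 6.33% were lower. The median log2 fold change of these mitosis genes was 0.45 in LD, with 19 of 25 above 0, and 0.55 in S, with 21 of 24 above 0. Over all genes, 50.8% were above 0 in LD and 52.6% in S. Of 54 further replication genes, 39 had an ID, 33 were tested in LD and 31 in S, and the medians were 0.12 and 0.11. None of the replication genes was higher in PL at that level in LD and 2 were lower, while in S 5 were higher and none lower. No gene of these lists was called in any comparison. Genes of the lists that were tested had to pass the filter on low counts, which a gene high in only 1 breed can pass, so that these counts describe the tested genes and not the lists as a whole. In the longer lists the mitosis genes had the larger median, whereas in the 10 genes the replication pair had a value close to that of the mitosis set (medians of 0.67 against 0.67 in LD, and 0.68 against 0.58 in S). The difference between the sets was not tested. The remaining helicase subunits tested, MCM4 and MCM5, which were chosen for mention after their values were seen, had log2 fold changes of 0.70 ± 0.40 (SE) and 0.72 ± 0.37 in LD and 0.66 ± 0.30 and 0.38 ± 0.34 in S (edgeR, adjusted p from 0.399 to 0.749). All 4 values were above the list's median.

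The further mitosis genes with the smallest p in LD were RACGAP1, NUF2 and KIF11. RACGAP1, which forms a complex with KIF23 at the midzone, averaged 2.45 ± 0.909 CPM in the LD of PUL and 3.91 ± 1.28 CPM in that of PL (SD, n = 8 each; edgeR, log2 fold change 0.67 ± 0.26 SE, adjusted p = 0.575), and its log2 fold change in S was 0.36 ± 0.24. KIF11, the motor that pushes the spindle poles apart, had 1.20 ± 0.48 in LD and 1.64 ± 0.46 in S (adjusted p = 0.607 and 0.219), and NUF2, a kinetochore protein, had 1.0 ± 0.41 and 1.01 ± 0.28 (adjusted p = 0.607 and 0.210). In S, 7 of 8 PL pigs were above every PUL pig for KIF11. In S the smallest p of the 4 lists belonged to UHRF1, a gene of the replication list, and to the mitosis genes DLGAP5 and CCNB1. UHRF1, which keeps DNA methylation through replication, averaged 0.435 ± 0.261 CPM in PUL and 1.16 ± 0.423 CPM in PL (log2 fold change 1.38 ± 0.35, adjusted p = 0.204). It was not among the genes tested between the breeds in LD. DLGAP5, a spindle protein, had 1.69 ± 0.43 in S (adjusted p = 0.204) and 1.0 ± 0.55 in LD, and CCNB1, the cyclin partner of CDK1, 1.37 ± 0.37 in S (adjusted p = 0.207) and 0.96 ± 0.50 in LD. In S, DLGAP5 averaged 0.411 ± 0.216 CPM in PUL and 1.31 ± 0.693 CPM in PL. UHRF1 and DLGAP5 were thus low in PUL and may have passed the filter on low counts in S mainly through the PL pigs.

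In the other direction, the smallest p in LD belonged to CDC7, RRM1 and LIN37. CDC7, the kinase that fires replication origins, averaged 0.973 ± 0.379 CPM in PUL and 0.580 ± 0.0679 CPM in PL (edgeR, log2 fold change -0.76 ± 0.26 SE, adjusted p = 0.534) and had -0.37 ± 0.35 in S. RRM1, a subunit of the enzyme that makes deoxynucleotides, had -0.30 ± 0.12 in LD and -0.03 ± 0.12 in S, and LIN37, part of the complex that represses cell cycle genes in resting cells, -0.46 ± 0.19 and -0.22 ± 0.15. In S the genes with the smallest p and lower in PL, HUS1, PRIM2 and FZR1, had log2 fold changes of -0.57 ± 0.34, -0.47 ± 0.29 and -0.22 ± 0.14, all with an unadjusted p above 0.1. HUS1 is part of the clamp that activates the replication checkpoint, PRIM2 is a subunit of the primase, and FZR1 is the partner of the ubiquitin ligase after mitosis. Of the checkpoint genes, 18 of 20 had an ID and 14 were tested, with medians of -0.08 in LD and 0.24 in S, and 1 (ATR, the kinase upstream of CHEK1) was higher in PL in S at an unadjusted p under 0.05 (edgeR, 0.48 ± 0.18, adjusted p = 0.344). Of the genes of G1 and quiescence, 16 of 29 had an ID and 12 were tested, with medians of 0.09 and 0.01. E2F1, which activates replication genes, was higher in PL in S at that level (0.83 ± 0.39, adjusted p = 0.423), where 5.38% of all genes were.

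**Figure D4:**
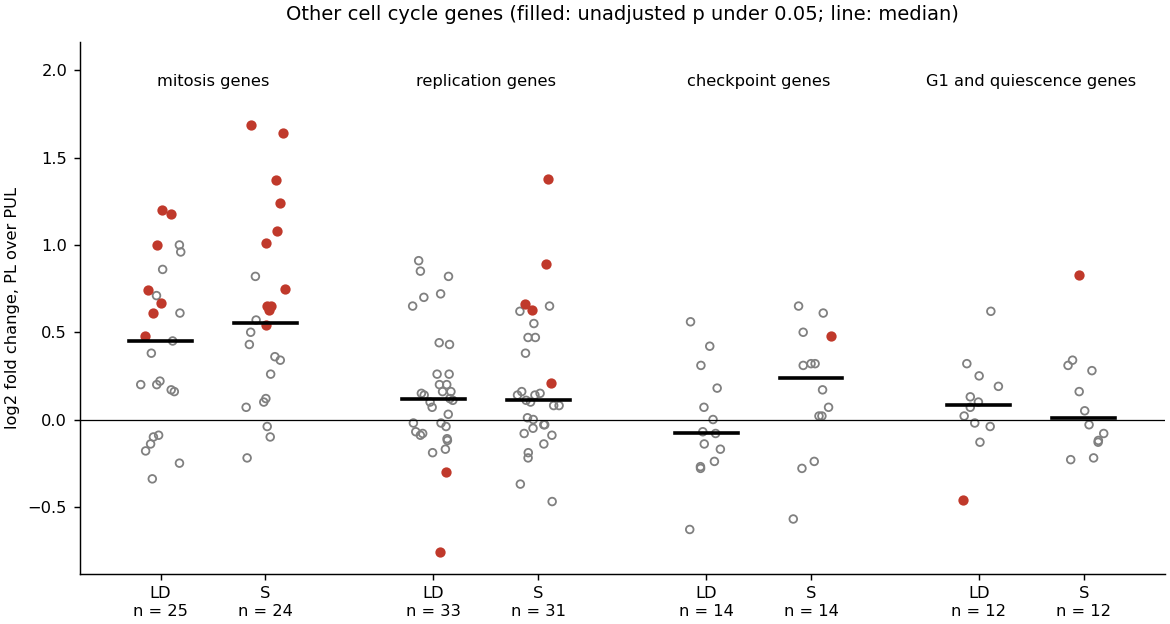
Log2 fold change of PL over PUL (y axis) for each tested gene of 4 lists of other cell cycle genes in LD and S (x axis). Filled points have an unadjusted p under 0.05 and lines are medians: these lie at 0.45 and 0.55 for mitosis genes and at 0.12 and 0.11 for replication genes.

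The level of the cell cycle genes moved with markers of cells between the fibres. Of 8 fibroblast markers, 7 had an ID and 6 were tested, and all 6 had log2 fold changes above 0 in both muscles, with medians of 1.42 in LD and 1.13 in S, and 5 and 4 of them at an unadjusted p under 0.05 (none called). Of all genes, 3.64% in LD and 5.38% in S were higher in PL at that level. The summed level of the fibroblast markers ranged in LD from 252 to 2350 CPM in PUL (median 490) and from 540 to 5520 CPM in PL (median 1290), and in S from 113 to 2190 CPM (median 960) and from 1120 to 5500 CPM (median 1980). None of the 7 was at 0 in any group. In PUL pigs 13, 16 and 17, those outside pigs 1 to 5, the summed level was 1310, 525 and 2350 CPM in LD. In S it was 2160, 1750 and 2190 CPM. These values lay on both sides of the PL medians, and the fibroblast markers were not fitted without pigs 1 to 5. Centred within groups, the log summed level correlated over the 32 libraries with the mitosis mean at 0.77 and with the replication mean at 0.70, with CDK1 at 0.82 and MCM2 at 0.77, but with NCAPG and ASPM at 0.36 each and with CHEK1 at 0.34. Leukocyte markers (5 of 10 with an ID, summed 5.06 to 42.2 CPM, medians of 0.47 and 0.30 for the breed difference, none at an unadjusted p under 0.05) correlated at 0.72 with the mitosis mean, and endothelial markers at 0.39. Satellite cell and myoblast markers (8 of 12 with an ID, summed 32.7 to 78.6 CPM) correlated at -0.30 with the mitosis mean and -0.42 with the replication mean, and the median of their summed level was lower in PL than in PUL, 48.9 against 58.3 CPM in LD and 45.8 against 53.8 CPM in S, with overlapping ranges. The median log2 fold change over the single markers was of the opposite sign, 0.32 in LD and 0.31 in S. Of the tested markers, 5 of 7 were above 0 in LD and 4 of 6 in S. The smallest p belonged to MYF5 in LD (1.05 ± 0.36 SE, edgeR, unadjusted p = 0.01) and to NCAM1 in S (0.59 ± 0.18, unadjusted p = 0.0043). Only MYOD1 and CDH15, a regulator of the muscle lineage and a cadherin of its cells, had values below 0. These were -0.62 ± 0.29 and -0.48 ± 0.38 (SE) in LD, and -0.31 ± 0.31 and -0.38 ± 0.29 in S. None of the markers was called. Erythroid markers (4 of 7 with an ID) had medians of 1.32 and 1.3 for the breed difference but correlated at only 0.22 with the mitosis mean, adipocyte markers at 0.09 and ACTA1 at -0.09. The part of the cells between the fibres in the breed differences of the cell cycle genes was not tested.

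**Figure D5:**
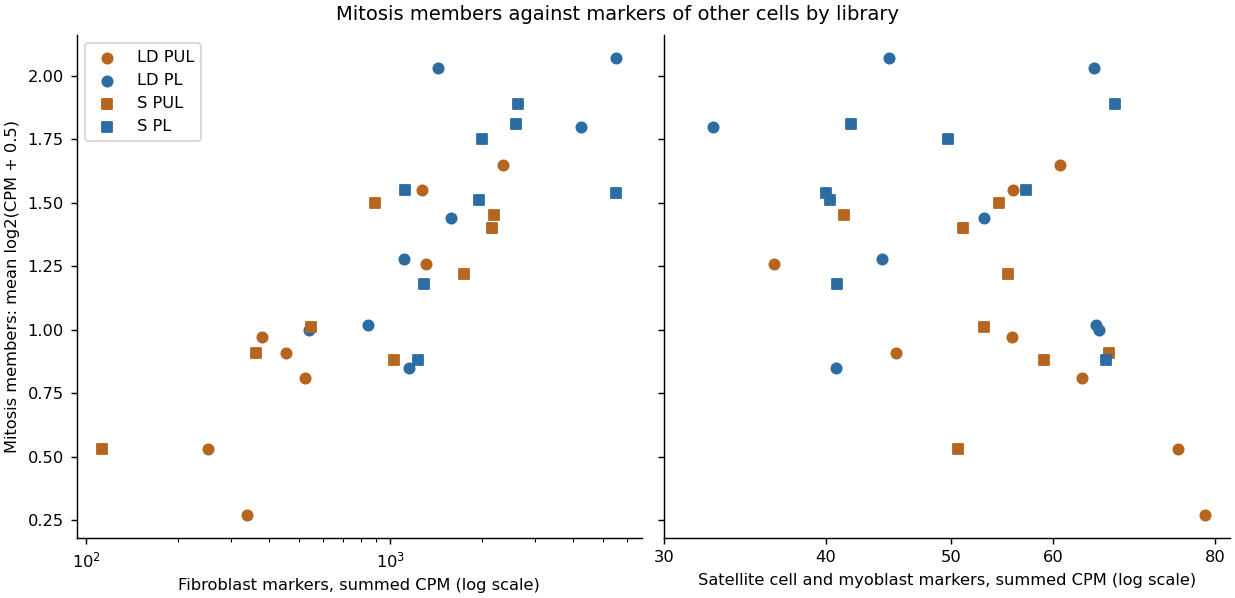
Mean log2(CPM + 0.5) of the 7 mitosis genes (y axis) against the summed CPM, on a log axis, of fibroblast markers (left) and of satellite cell and myoblast markers (right). Points are libraries of the 4 groups. The mitosis mean is higher where fibroblast markers are higher (correlation of 0.77 within groups) and tends to be lower where satellite cell and myoblast markers are higher (-0.30).

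Of all genes with a symbol outside the 10, the 10 whose level was most like the mitosis mean over the 32 libraries, after centring within groups, were UBE2C, ITM2C, PBK, CAMK2N1, ANXA5, IGFBP7, CD44, EPHB2, ASPN and OLFML2A, with Pearson correlations of 0.86 to 0.89. UBE2C, which passes ubiquitin to the ligase that CDC20 activates, and PBK, a mitotic kinase, are cell cycle genes. ASPN is a proteoglycan of connective tissue, CD44 a receptor for hyaluronan, IGFBP7 a secreted binding protein and ANXA5 a binder of membrane phospholipids. PBK was higher in PL with log2 fold changes of 0.97 ± 0.44 (SE) in LD and 1.34 ± 0.33 in S (edgeR, adjusted p = 0.674 and 0.204), and ASPN with 1.51 ± 0.49 and 1.28 ± 0.43 (adjusted p = 0.520 and 0.283). ITM2C and OLFML2A, as highly correlated, had smaller values, 0.40 ± 0.34 and 0.27 ± 0.27 in LD and 0.28 ± 0.28 and 0.40 ± 0.24 in S.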

How the data were processed

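RNA of LD and S muscles of 16 gilts was depleted of ribosomal RNA and sequenced as single reads. The authors aligned the reads with Bowtie2 to Sscrofa 10.2 and deposited expected counts per gene from RSEM, not normalized, in which reads of several possible origins are divided among genes. The library kit did not mark strand, so overlapping antisense transcripts cannot be told apart. Libraries were run 16 to a lane and repeated on several lanes to avoid a lane effect, and which libraries shared a lane is not given in the sources used here. A table of isoform counts was not used, because its IDs were not paired with genes. Gene symbols came from a table of gene names, which matched 11804 of 25322 gene IDs. No coordinates or sequences are given.

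From there, the expected counts were rounded and passed to edgeR 4.0.16 under R 4.3.3 (TMM factors, filterByExpr, glmQLFit and glmQLFTest, Benjamini-Hochberg adjustment over all tested genes), with DESeq2 1.42.0 as an alternative. A gene was called at an adjusted p of at most 0.05 and a fold of at least 1.3. Breeds were compared in each muscle over 16 libraries, and muscles and their interaction with breed over all 32 libraries (11563 genes) with the pig as a block. The pairing of LD with S comes from the pig numbers in the labels. The correlation, across genes, of the deviations of the 2 libraries of a pig from their group means had a median of 0.20 (above 0.1 in 11 of 16 pigs), against -0.05 for different pigs. Standard errors were derived from the F statistic. Means and correlations of sets used log2(CPM + 0.5). The tests were tested on simulated counts.

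The 10 genes, the other lists and the tests were chosen with earlier results of these data known. The genes named in the text are the 10 members, the 3 genes of the 4 other cell cycle lists with the smallest p in each direction and muscle, marker lists of 8 cell types, and the 10 genes most like the mitosis mean; ATR, E2F1, MCM4 and MCM5 were added after their values were seen. Libraries of a group differed by more than sampling noise (lowest chi-square per degree of freedom between libraries 32.0). Library totals ranged from 8821259 to 24761846 counts, and the 10 most abundant genes took 27.3 to 48.9% of them. Counting error at this depth covers reads only. The alternatives were DESeq2, library size alone, RLE factors, at least 10 counts in every library, no filter, both muscles in one fit, the replicate number as a block, no pig block, a pseudocount of 1 CPM and leaving out each library or pig in turn. Leaving out PUL pigs 1 to 5 and summing the 2 libraries of a pig were added after the data were seen.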

Additional observations from a re-analysis of the deposited data

How the results depend on the processing

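In edgeR, no cell cycle gene was called under any alternative, and DESeq2 called 2 in S. Nor did leaving out single libraries or pigs give a call.

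Over all genes, DESeq2 called 19 in LD, 103 in S, 79 between the muscles in PUL, 4 in PL and 1 in the interaction. In LD and S, no filter gave 4 and 4 calls, both muscles in one fit 6 and 70, PUL pigs 1 to 5 left out 1 and 1, and the summed counts of each pig 4, while RLE factors gave 1 in S. For the muscles in PUL (3 calls), the fit with no replicate block gave 10, library size alone 6, no filter 8 and at least 10 counts in every library 0. The number of the 10 genes higher in PL at an unadjusted p under 0.05 was 2 in LD with library size alone, 0 in LD and 2 in S with at least 10 counts in every library, which tests few of them, and 0 in LD and 1 in S without PUL pigs 1 to 5. In the interaction it was 1 with DESeq2, library size alone, no filter and at least 10 counts (CHEK1 each time).

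The direction reversed for NCAPG in LD with library size alone (-0.15), AURKB in LD without PUL pigs 1 to 5 (-0.27), and AURKB in S with library size alone (0.02) and summed counts (0.07). Leaving out 1 library gave log2 fold changes of -0.08 to 0.30 for NCAPG and -0.38 to 0.08 for ASPM in LD, and -0.14 to 0.06 for AURKB in S. It gave 1 to 6 genes at an unadjusted p under 0.05 in LD, 4 to 7 in S, 0 to 1 in the interaction, and 0 to 1 calls over all genes in LD, S and the muscles in PUL, and 0 to 6 in PL. With 1 library left out, the balance of mitosis minus replication ranged from -0.30 to -0.15 in LD and from -0.31 to -0.12 in S. These ranges do not cover leaving out PUL pigs 1 to 5 together. The cause of these changes was not tested.

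The labels do not say that a replicate number links a PUL pig with a PL pig. Same-numbered libraries of the 2 breeds had a median correlation of 0.30 in LD (above 0.1 for 6 of 8 numbers) and -0.06 in S (2 of 8). For the 2 libraries of a pig the median was 0.20 (above 0.1 in 11 of 16 pigs), below the LD value. These correlations therefore do not decide which libraries are pairs. The pig was used as a block because the labels give its number, and the replicate number only in an alternative. The fit with the replicate number as a block gave 5 of the 10 genes at an unadjusted p under 0.05 in LD and 6 in S, with CDC20 in LD at an unadjusted p of 0.00909 in place of 0.0651 (edgeR). It gave, for example, 1.24 for CDK1 and 1.45 for KIF20A in LD and 1.19 for CHEK1 in S (edgeR, adjusted p = 0.413), and changed no call among the 10 genes.

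With library size alone, the median log2 fold change of all genes was -0.18 in LD and 0.07 in S, and the share of genes with an unadjusted p under 0.05 that were higher in PL was 9.4% in LD and 59.5% in S, against 50.9% and 45.9% with TMM factors. The low counts limit what can be seen: at 2 counts, as for CDK1 in the LD library of PUL pig 5 (0.14 CPM), the exact 95% interval was 0.0170 to 0.507 CPM.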
